A study of Mus musculus with 8 samples.

Results

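The mouse genes named Zfp600 to Zfp999 are zinc finger genes numbered late in the Zfp series, many of them copies that duplication has left side by side on the chromosome. They were taken by symbol from 4 tables of the authors' own comparisons, which between them hold 155 such genes among 16896. The libraries were TT-seq of E14 mouse embryonic stem cells, in which RNA made during a 5 min pulse of 500 nM 4-thiouridine is drawn out and sequenced. The mutant lines carry K122A, a lysine to alanine change in the histone variant H3.3, which the genes H3f3a and H3f3b encode with 4 alleles in a diploid cell. Dual-targeted lines (3 libraries) have 3 mutant alleles: 2 are clones with H3f3a A/A and H3f3b WT/A, called the clones here, and the other line, called the H3f3b A/A dual-targeted line, has H3f3a WT/A with H3f3b A/A. Single-targeted lines (2 libraries) have 2 mutant alleles, either H3f3a A/A with H3f3b WT/WT or H3f3a WT/WT with H3f3b A/A. Wildtype E14 cells (3 libraries) are biological replicates, while each mutant line was sequenced a single time, so error among mutant libraries reflects differences between lines. The labels name culture with LIF and with LIF and 2 inhibitors and do not tie either to a library. A substitution need not alter the transcript level of its own gene, so H3f3a and H3f3b do not check the labels here.

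KRAB zinc finger proteins are the largest family of transcriptional repressors in mammals. Their C2H2 zinc fingers bind DNA, often in endogenous retroviruses and other retroelements, and their KRAB domain recruits TRIM28 (KAP1), which brings the histone methyltransferase SETDB1 to deposit H3K9me3. In embryonic stem cells this pathway keeps many retroelements silent, and the chaperone pair ATRX and DAXX places H3.3 at the same elements. Of the 155 genes, 106 encoded a KRAB A-box in their annotated protein, 44 did not, and 5 had no complete protein to read. Clusters, taken as genes whose starts follow each other within 1 Mb, numbered 22 and held 112 of the 155, and the other 43 stood alone. Of the 106 KRAB genes, 90 lay in clusters, against 17 of the 44 without KRAB. The annotated proteins held a median of 12 C2H2 fingers with KRAB and 7 without, and at most 33 (Zfp619).

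The KRAB domain is the feature that the family shares, and its A-box sits on a single exon, which was 127 bases long in 99 of the 106 genes. These exons are shown because they let near-identical copies be told from distant ones among the genes described next. Coordinates are GRCm38, letters run 5′ to 3′ on the coding strand, and capitals mark the 19 codons of the A-box that were scanned.
Zfp600, chr4:146193307-146193433, plus strand: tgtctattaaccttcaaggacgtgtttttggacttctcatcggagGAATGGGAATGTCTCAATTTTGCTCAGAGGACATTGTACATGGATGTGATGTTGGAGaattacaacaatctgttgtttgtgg
Zfp980, chr4:145699244-145699370, plus strand: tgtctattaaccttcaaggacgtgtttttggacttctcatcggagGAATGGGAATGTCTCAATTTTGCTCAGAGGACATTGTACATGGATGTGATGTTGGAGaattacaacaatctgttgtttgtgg
Zfp990, chr4:145534816-145534942, plus strand: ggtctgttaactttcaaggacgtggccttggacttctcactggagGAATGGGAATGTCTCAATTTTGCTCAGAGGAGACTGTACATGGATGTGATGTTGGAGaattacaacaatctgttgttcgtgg
Zfp946, chr17:22453452-22453578, plus strand: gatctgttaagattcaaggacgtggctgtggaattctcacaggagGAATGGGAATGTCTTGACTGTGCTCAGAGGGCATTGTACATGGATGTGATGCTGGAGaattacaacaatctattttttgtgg
Zfp811, chr17:32800812-32800938, minus strand: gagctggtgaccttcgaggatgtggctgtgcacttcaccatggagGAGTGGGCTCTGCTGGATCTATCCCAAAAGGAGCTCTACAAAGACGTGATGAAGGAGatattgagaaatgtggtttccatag
Zfp866, chr8:69769121-69769247, minus strand: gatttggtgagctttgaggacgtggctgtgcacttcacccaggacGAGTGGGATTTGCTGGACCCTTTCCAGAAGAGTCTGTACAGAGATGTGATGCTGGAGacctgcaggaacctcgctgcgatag
Zfp809, chr9:22235020-22235146, plus strand: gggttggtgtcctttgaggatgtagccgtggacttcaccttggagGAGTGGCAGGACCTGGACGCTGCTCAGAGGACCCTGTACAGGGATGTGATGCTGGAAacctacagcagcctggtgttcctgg
The exons of Zfp600 and Zfp980 were identical over all 127 bases, and that of Zfp990, in the same chromosome 4 cluster, differed from them at 11. Zfp946, from chromosome 17, differed from Zfp600 at 19 bases, Zfp811 at 53 and Zfp866, from chromosome 8, at 52. Over all 127-base exons there were 96 distinct sequences, with a median of 47 differing bases between pairs. Within the chromosome 4 cluster the median was 11, and within the first chromosome 17 cluster it was 15. In the chromosome 4 cluster, 13 of 16 genes had over 20% of the 50-base words of their transcripts in some other gene (median 61.2%), against a median of 1.09% over the 155. No source used here says how the authors' counting divided reads between such copies, so values of single genes in that cluster are uncertain. The same holds for genes elsewhere that share many words.

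No value per library was used, so each gene is described by the deposited mean count, log2 fold change and SE, and by rebuilt means for each group, derived from all 4 tables and without an error. Depth per library is therefore unknown. The median gene of the 155 had a mean normalized count of 183 by the authors' deposited table of dual-targeted and wildtype libraries, and 17 genes had a mean under 50. All 9 stem cell markers listed were in the tables, with summed rebuilt means of 21941 in dual-targeted lines, 17671 in single-targeted lines and 17419 in wildtype cells. In dual-targeted lines over wildtype cells 6 of the 9 were higher by the authors' deposited table, and Sox2, Zfp42 and Esrrb did not pass the test. Of the fibroblast and feeder markers, Col1a1, Col1a2, Col3a1 and Acta2 were not in the table, and the sum of Thy1 and Fn1 is nearly all Fn1. Fn1 had rebuilt means of 4463 in dual-targeted lines, 6622 in single-targeted lines and 9398 in wildtype cells, and Thy1 had 30.7 in dual-targeted lines, 34.1 in single-targeted lines and 19.7 in wildtype cells. Neural ectoderm markers, with 4 of 4 in the table, summed to 569 in dual-targeted lines, 281 in single-targeted lines and 365 in wildtype cells. Of these, Nes and Tubb3 were higher in dual-targeted lines over wildtype cells by the authors' deposited table, while Pax6 had rebuilt means of 138 in dual-targeted lines and 187 in wildtype cells, and Sox1 had 35.1 in dual-targeted lines and 55.8 in wildtype cells, neither past the test. Of the primitive endoderm list Sox17 was not in the table and Gata6 had no rebuilt means, and Gata4 and Dab2 summed to 40.4 in dual-targeted lines, 45.3 in single-targeted lines and 40.03 in wildtype cells. Of the trophectoderm list Cdx2 and Elf5 were not in the table, and Krt18 had a rebuilt mean of 47.8 in dual-targeted lines, 13.1 in single-targeted lines and 11.5 in wildtype cells. Krt8, with no rebuilt means, was higher in dual-targeted lines over wildtype cells by the authors' deposited table, with a log2 fold change of 2.21 ± 0.65 (SE, adjusted p = 0.000622). In the clones over wildtype cells Krt8 did not pass the test, at 0.85 ± 0.79 (SE, adjusted p = 0.0892) by the authors' deposited table. The mean count of Krt18 over the libraries compared was 13.1 with the clones and 29.7 with all dual-targeted lines. Of 6 markers of 2-cell-like cells, Zscan4c, Zscan4d, Tcstv1 and Tcstv3 were not in the table. The other two were both higher in dual-targeted lines over wildtype cells by the authors' deposited table: Zscan4a had a log2 fold change of 6.42 ± 1.41 (SE, adjusted p = 4.98e-06) at a mean of 18.7 normalized counts, and Usp17le one of 6.15 ± 1.94 (SE, adjusted p = 0.000813) at a mean of 19.8. Neither had a rebuilt mean for each group, since the tables of single-targeted lines and of the clones against wildtype cells do not list them. Neither rise can therefore be shown in the clones, and 1 library, that of the H3f3b A/A dual-targeted line, may carry both. The part of such differences in the results was not tested, and in bulk RNA fewer cells of a type and less RNA per cell cannot be told apart.

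The comparison of dual-targeted lines with wildtype cells asks how the zinc finger genes were transcribed when 3 of 4 H3.3 alleles carried the substitution. Most of them did not pass the test: 9 were higher and 16 lower by the authors' deposited table at an adjusted p under 0.05, out of 155 tested. That is 16.1% of these genes, against 20.9% of the 16493 genes tested in all (10.8% higher, 10.1% lower). Their median log2 fold change by the authors' deposited table was -0.05, with 69 above 0 and 86 below, against 0.01 over all genes. Among KRAB genes 5 of 106 were higher and 8 lower by the authors' deposited table, with a median of -0.11, and among genes without KRAB 4 of 44 were higher and 8 lower, with a median of -0.02. The 210 other Zfp genes, set beside them, had 18 higher and 14 lower by the authors' deposited table and a median of 0.03.

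**Figure D1:**
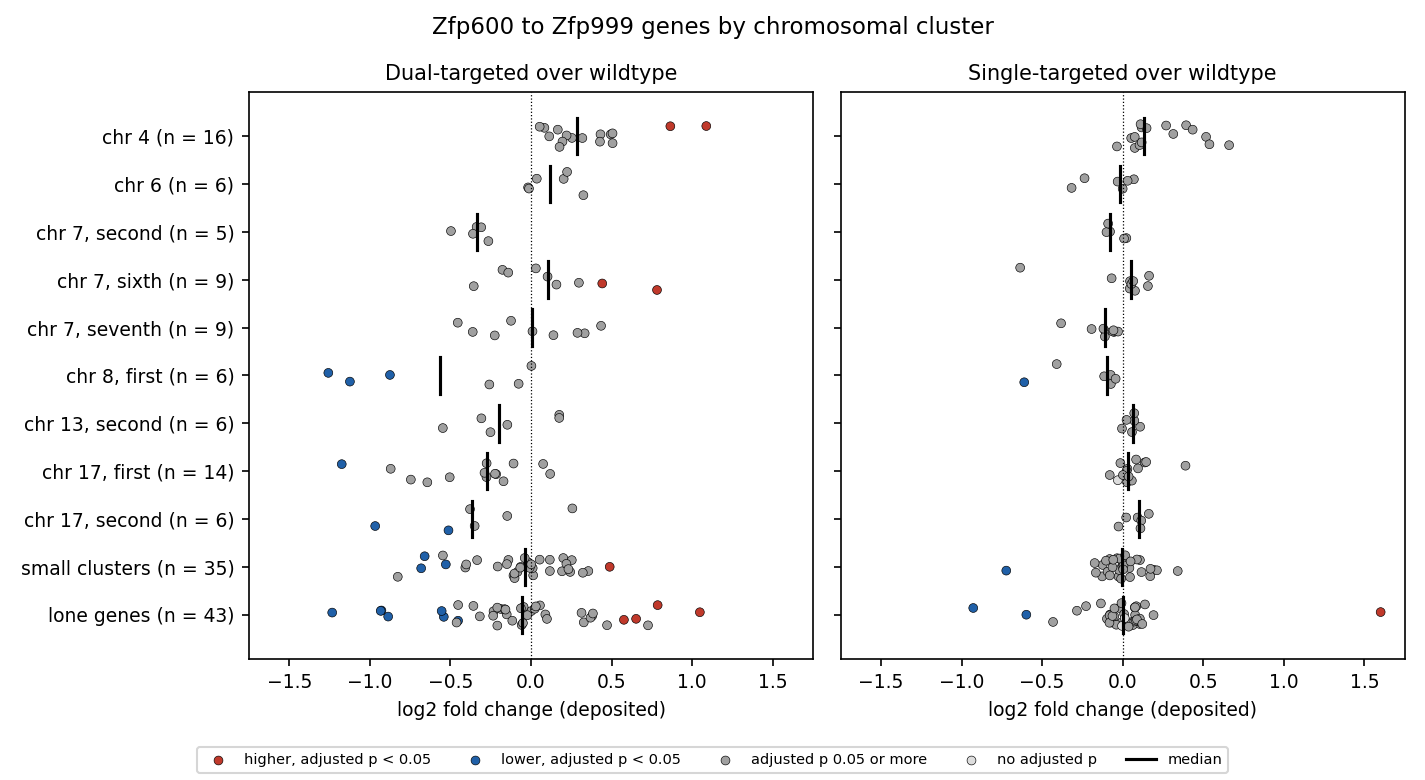
Each point is 1 gene, with its deposited log2 fold change on the x axis, for dual-targeted lines over wildtype (left panel) and single-targeted lines over wildtype (right panel). Rows are the clusters of 5 or more genes, numbered along their chromosome, then the smaller clusters and the lone genes, with n the number of genes. Black bars are medians, which stood at 0.29 for the chromosome 4 cluster, -0.28 and -0.36 for the chromosome 17 clusters and -0.57 for the first chromosome 8 cluster in the left panel.

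The chromosome 4 cluster (chromosome 4, 145510759 to 147848366) held 16 genes, all of them above 0 in dual-targeted lines, at 0.05 to 1.09 by the authors' deposited table (median 0.29). Proteins of this cluster are known in mouse for binding long terminal repeat retroelements. The 2 that passed the test were Zfp600 and Zfp980, a pair with the same KRAB exon. The cluster's 14 KRAB exons of the commonest length held 12 distinct sequences, each in at most 2 genes. Another pair in the cluster therefore also shared an exon, and neither of its genes passed the test. Zfp600 (chromosome 4, 146156824 to 146198755) had rebuilt means of 298 normalized counts in dual-targeted lines, 251 in single-targeted lines and 131 in wildtype cells. Its log2 fold change in dual-targeted lines was 1.09 ± 0.30 (SE, adjusted p = 0.000542) by the authors' deposited table. Zfp980 (chromosome 4, 145670685 to 145704441) had rebuilt means of 318 in dual-targeted lines, 210.4 in single-targeted lines and 165 in wildtype cells. Its fold change was 0.86 ± 0.25 (SE, adjusted p = 0.00137) by the authors' deposited table. Both genes were therefore higher in the dual-targeted group, and Zfp600 alone of the pair also had a single-targeted mean nearer to the dual-targeted one. Zfp600 overlaps Gm13170 and Zfp980 overlaps Gm13239 on the same strand, and 81.2% and 71.3% of their 50-base transcript words occur in some other gene.

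The other 14 genes of the cluster did not pass the test. The highest of them by the authors' deposited table were Zfp978, at 0.51 ± 0.26 (SE, adjusted p = 0.0712), and Zfp987, at 0.51 ± 0.34 (SE, adjusted p = 0.126). Zfp981 stood at 0.49 ± 0.26 (SE, adjusted p = 0.0797) by the authors' deposited table. Zfp982, which has been linked to stem cell identity in mouse, stood at 0.22 ± 0.23 (SE, adjusted p = 0.444), and Zfp990, the most abundant of the cluster, at 0.32 ± 0.24 (SE, adjusted p = 0.253) by the authors' deposited table. Genes lying between them were mostly above 0 as well: of 36 others measured inside the cluster, 30 were, and 6 were higher at an adjusted p under 0.05 by the authors' deposited table, with a median of 0.21. Those 6 were Gm13146, Gm13147, Gm13228, Gm13239, Gm13241 and Gm21411. Over all 994 genes of chromosome 4 the median was 0.04, with 119 higher and 71 lower by the authors' deposited table. Because copies in the cluster share sequence, its genes are not independent of each other.

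The promoters of Zfp980 and Zfp600 are shown because the only called genes of the cluster are also copies upstream of their starts. RefSeq (GRCm38.p6) gave a promoter for 132 of the 155 genes and for 10 of the 16 in the cluster. The 250 bases before each start are printed 5′ to 3′ on the gene's strand, with capitals for the longest run that both share.
Zfp980, chr4:145670447-145670696, plus strand: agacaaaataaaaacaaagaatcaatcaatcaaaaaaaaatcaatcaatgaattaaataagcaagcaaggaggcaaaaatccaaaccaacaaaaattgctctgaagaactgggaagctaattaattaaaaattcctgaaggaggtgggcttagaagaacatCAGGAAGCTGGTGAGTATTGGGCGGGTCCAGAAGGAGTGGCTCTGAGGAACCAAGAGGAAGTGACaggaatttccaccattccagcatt
Zfp600, chr4:146156577-146156826, plus strand: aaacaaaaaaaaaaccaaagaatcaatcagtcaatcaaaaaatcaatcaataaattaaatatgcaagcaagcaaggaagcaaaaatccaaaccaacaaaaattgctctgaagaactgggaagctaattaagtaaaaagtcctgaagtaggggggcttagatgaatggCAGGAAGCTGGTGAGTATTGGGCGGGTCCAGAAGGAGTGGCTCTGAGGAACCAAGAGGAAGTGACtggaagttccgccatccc
The shared run is 65 bases long. It occurred on either strand in 3 of 27025 RefSeq promoter windows of 300 bases (0.0111%), those of Zfp980, Zfp600 and Rex2, and in none of the windows of the other 8 genes of the cluster or of 122 genes outside it. Promoters of the cluster had a median of 5 CpG in the window, against 11 over the 155 genes and 7 over all windows. Among the 155, KRAB genes had a median of 9 CpG and genes without KRAB 21.5.

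**Figure D2:**
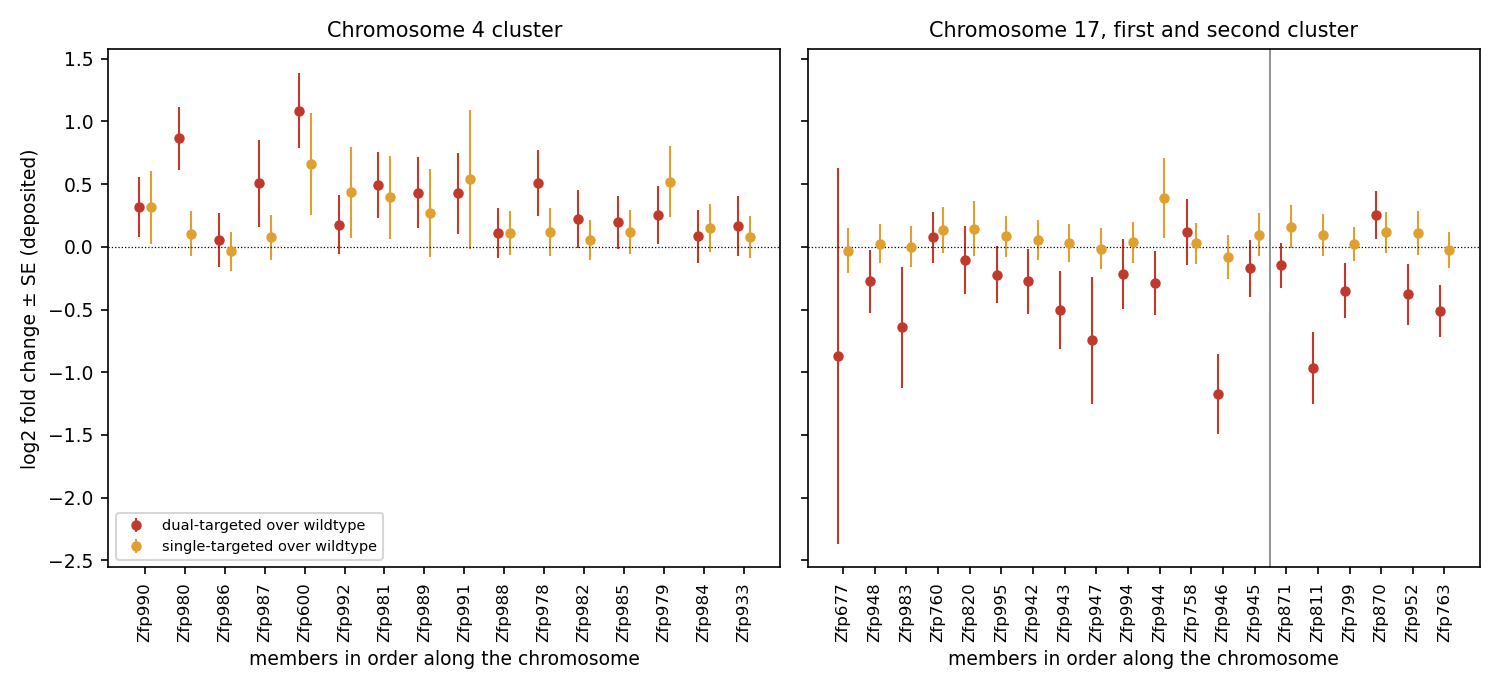
Deposited log2 fold changes with their SE (y axis) for genes in order along the chromosome (x axis), in the chromosome 4 cluster (left panel) and in both chromosome 17 clusters (right panel, divided by the vertical line), for dual-targeted (red) and single-targeted (yellow) lines over wildtype. All 16 red points of the left panel lie above 0, and 17 of 20 in the right panel lie below.

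The chromosome 17 clusters lay on the other side. In the first (chromosome 17, 21383748 to 22867134) 12 of 14 genes were below 0 in dual-targeted lines by the authors' deposited table (median -0.28), and in the second (chromosome 17, 32765496 to 33033402) 5 of 6 were (median -0.36). All 20 are KRAB genes, and 3 of them passed the test. Zfp946 (chromosome 17, 22424222 to 22456689) had rebuilt means of 154 normalized counts in dual-targeted lines, 308 in single-targeted lines and 387 in wildtype cells. It was lower in dual-targeted lines by the authors' deposited table, at -1.17 ± 0.32 (SE, adjusted p = 0.000423). Zfp811 (chromosome 17, 32795676 to 32809931) had rebuilt means of 66.2 in dual-targeted lines, 173 in single-targeted lines and 142 in wildtype cells, with a fold change of -0.97 ± 0.28 (SE, adjusted p = 0.00122) by the authors' deposited table. In both genes the dual-targeted mean was the lowest, but of the pair only Zfp811 passed the direct test of dual-targeted over single-targeted lines. Zfp763 was also lower by the authors' deposited table, at -0.51 ± 0.21 (SE, adjusted p = 0.0287). Zfp871, the most abundant of the 20, stood at -0.15 ± 0.18 (SE, adjusted p = 0.559) by the authors' deposited table. Zfp677, in the first cluster, had a mean count of only 6.92 and stood at -0.87 ± 1.50 (SE, adjusted p = 0.0683) by the authors' deposited table.

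Other genes in the same stretch did not all go the same way. Inside the first chromosome 17 cluster 7 of 8 other measured genes were above 0 by the authors' deposited table, and Zfp229, also a zinc finger gene, was higher at 1.01 ± 0.22 (SE). Inside the second, all 5 others were below 0 by the authors' deposited table, and Cyp4f13, a cytochrome P450 gene, was lower at -0.66 ± 0.24 (SE). Over all 753 genes of chromosome 17 the median by the authors' deposited table was 0.02, with 72 higher and 65 lower.

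On chromosome 8, 13 of 15 genes were below 0 in dual-targeted lines and 6 were lower at an adjusted p under 0.05 by the authors' deposited table (median -0.36). Of the 841 other genes of chromosome 8, 664 were below 0 by the authors' deposited table, with 41 higher, 259 lower and a median of -0.27. A change of the whole chromosome and one of its zinc finger genes cannot be told apart. Zfp827 (chromosome 8, 79028437 to 79193766), whose human counterpart recruits the NuRD complex to telomeres, had rebuilt means of 593 normalized counts in dual-targeted lines, 733 in single-targeted lines and 1456 in wildtype cells. Its fold change in dual-targeted lines was -1.23 ± 0.19 (SE, adjusted p = 2.35e-09) by the authors' deposited table. Zfp866 (chromosome 8, 69761326 to 69791178), a KRAB gene, had rebuilt means of 656 in dual-targeted lines, 916 in single-targeted lines and 1488 in wildtype cells. It stood at -1.12 ± 0.18 (SE, adjusted p = 2.33e-09) by the authors' deposited table, and it overlaps Atp13a1 on the opposite strand. For both genes the single-targeted mean lay between the others. Zfp963 (-1.26 ± 0.49 SE, adjusted p = 0.00648) and Zfp964 (-0.88 ± 0.32 SE, adjusted p = 0.00786), neighbours of Zfp866, were lower too by the authors' deposited table. Zfp963 is a low gene, with a mean count of 29.6 by the authors' deposited table, and 39.4% of its 50-base transcript words occur in some other gene. The others that were lower on chromosome 8 by the authors' deposited table were Zfp821, at -0.68 ± 0.22 (SE, adjusted p = 0.00449), and Zfp709, at -0.66 ± 0.24 (SE, adjusted p = 0.00972). Without chromosomes 8 and 14 the count of lower genes is 10 in place of 16.

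The cluster at chromosome 7, 41633203 to 43618285 held 9 KRAB genes, of which 2 were higher in dual-targeted lines by the authors' deposited table. Over all genes tested 10.8% were higher, and whether the 9 genes depart from that share was not tested. Zfp975 stood at 0.78 ± 0.22 (SE, adjusted p = 0.000911) and Zfp936 at 0.44 ± 0.20 (SE, adjusted p = 0.0486) by the authors' deposited table. Rebuilt means of Zfp975 were 445 normalized counts in dual-targeted lines, 321 in single-targeted lines and 248 in wildtype cells. For Zfp975 and Zfp936, 30.4% and 15.6% of 50-base transcript words occur in some other gene. Like Zfp600 and Zfp980, Zfp975 and Zfp936 share an identical 127-base KRAB exon. So does another pair in the chromosome 4 cluster, of which neither gene passed the test in dual-targeted lines. Zfp819 of this cluster, whose protein is known to bind TRIM28 in mouse pluripotent cells, stood at -0.18 ± 0.19 (SE, adjusted p = 0.482) by the authors' deposited table. All 5 genes of another cluster (chromosome 7, 6131491 to 7209998) were below 0, at -0.50 to -0.26 by the authors' deposited table. Of these, 0 passed the authors' DESeq2 test, with 2 at an unadjusted p under 0.05. Once the trend of all genes on gene length was taken out, 1 of the 5 was lower in dual-targeted lines and 2 in the clones. Chromosomes 4, 8 and 17 hold most of the called KRAB genes. Away from them, 3 of 57 KRAB genes were higher and 1 was lower by the authors' deposited table. That is a share of 7.02%, against 20.2% of all genes off these chromosomes. Leaving out the chromosomes with most calls lowers this share by itself, so it is no result about KRAB genes.

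In dual-targeted lines 4 of the 43 lone genes were higher and 7 lower by the authors' deposited table (25.6%, against 20.9% of all genes tested). Zfp704 (chromosome 3, 9427020 to 9610085), among the most abundant of the 155, had rebuilt means of 1198 normalized counts in dual-targeted lines, 1864 in single-targeted lines and 2414 in wildtype cells. Its fold change in dual-targeted lines was -0.93 ± 0.21 (SE, adjusted p = 4.03e-05) by the authors' deposited table. Zfp839 (chromosome 12, 110850253 to 110869996) had rebuilt means of 230.0 in dual-targeted lines, 277 in single-targeted lines and 465 in wildtype cells, with a fold change of -0.93 ± 0.22 (SE, adjusted p = 9.81e-05) by the authors' deposited table. Zfp697 was lower at -0.89 ± 0.33 (SE, adjusted p = 0.00744) and Zfp941 at -0.55 ± 0.20 (SE, adjusted p = 0.0141) by the authors' deposited table. Zfp710 was lower at -0.54 ± 0.20 (SE, adjusted p = 0.0176) and Zfp652, a repressor known in human cells to work with the co-repressor CBFA2T3, at -0.45 ± 0.16 (SE, adjusted p = 0.0176) by the authors' deposited table. These genes span 69360.0 and 122443 bases, against a median of 18328 over the 155, and once the length trend of all genes was taken out their adjusted p was 0.0752 and 0.0697. The other lone gene that was lower was Zfp827 on chromosome 8. In a small cluster on chromosome 7, Zfp974 was lower, at -0.53 ± 0.25 (SE, adjusted p = 0.0488), and Zfp626, its neighbour, was higher, at 0.49 ± 0.19 (SE, adjusted p = 0.0222), by the authors' deposited table.

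Of the lone genes that were higher, Zfp618, known to partner UHRF2 in reading 5-hydroxymethylcytosine, had rebuilt means of 93.9 normalized counts in dual-targeted lines, 70.2 in single-targeted lines and 49.9 in wildtype cells. Its fold change was 0.79 ± 0.32 (SE, adjusted p = 0.0147) by the authors' deposited table. Zfp830, known as Omcg1 and needed for the early mouse embryo, was higher at 0.65 ± 0.23 (SE, adjusted p = 0.00915), and Zfp770 at 0.58 ± 0.20 (SE, adjusted p = 0.0113), by the authors' deposited table. Zfp750, a regulator of epidermal differentiation, was higher at 1.05 ± 0.50 (SE, adjusted p = 0.019) by the authors' deposited table, with a mean count of only 27.5. It overlaps Tbcd on the opposite strand, and reads of the 2 genes cannot be told apart, as no source used here says whether counting used strand. Just outside the threshold by the authors' deposited table lay Zfp655 (-0.46 ± 0.21 SE, adjusted p = 0.0513) and Zfp972 (-0.83 ± 0.53 SE, adjusted p = 0.054), and just inside lay Zfp936 and Zfp974.

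**Figure D3:**
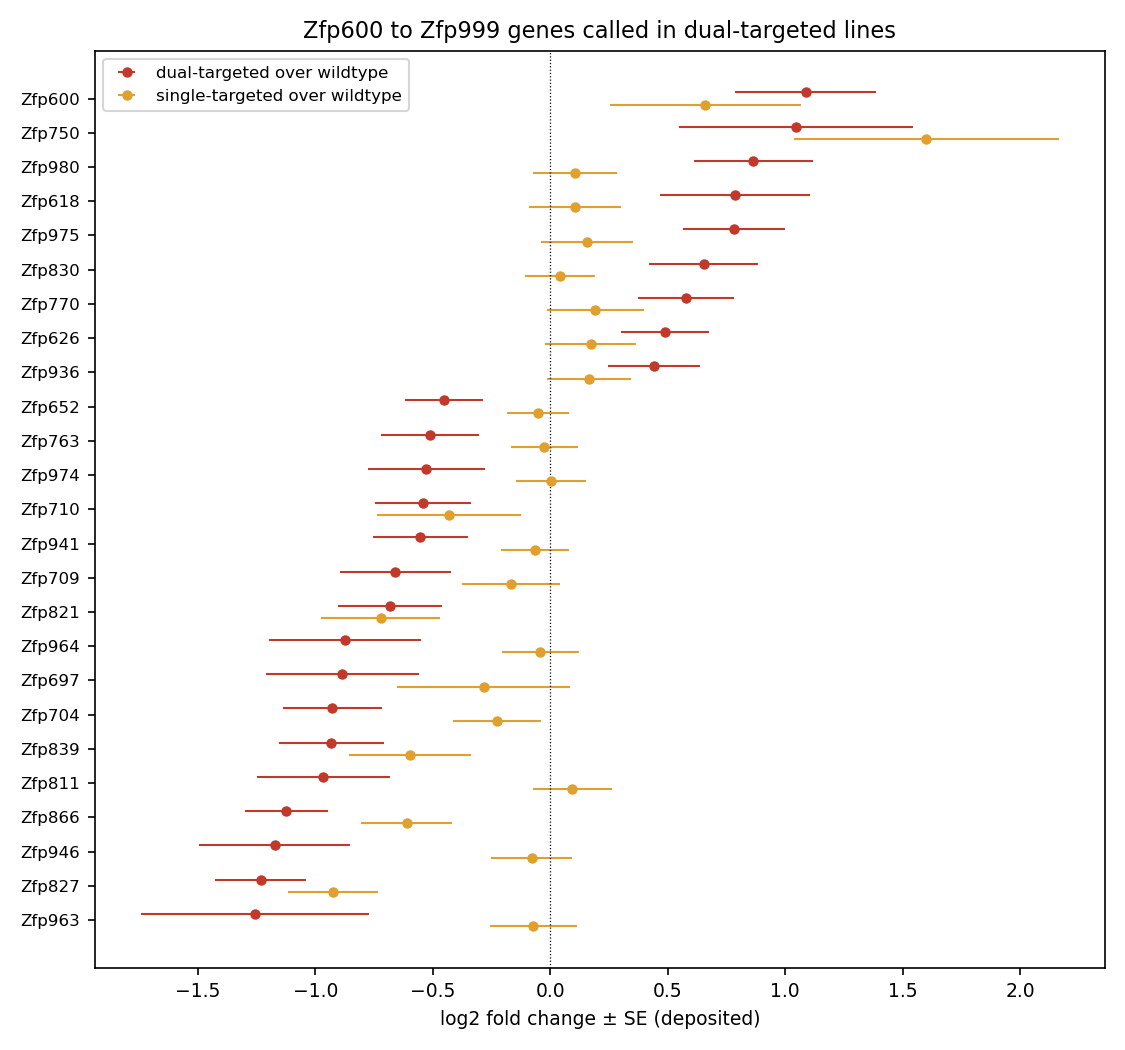
The 25 genes that passed the test in dual-targeted lines (rows, ordered by size), with their deposited log2 fold change and SE on the x axis, for dual-targeted (red) and single-targeted (yellow) lines over wildtype. Yellow points of Zfp750, Zfp821, Zfp827, Zfp839 and Zfp866 lie on the same side of 0 as the red ones and also passed the test, while those of Zfp946, Zfp811, Zfp963 and Zfp964 lie near 0.

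Several of the zinc finger genes with well described roles did not pass the test in dual-targeted lines. Zfp809, a KRAB gene on chromosome 9 whose protein silences murine leukaemia virus in mouse stem cells by binding its primer binding site, had rebuilt means of 343 normalized counts in dual-targeted lines, 373 in single-targeted lines and 259 in wildtype cells. Its fold change was 0.36 ± 0.19 (SE, adjusted p = 0.11) by the authors' deposited table. Zfp932, which binds endogenous retroviruses in mouse stem cells, stood at -0.10 ± 0.21 (SE, adjusted p = 0.731) by the authors' deposited table. Zfp638, which helps silence unintegrated retroviral DNA in human cells, stood at -0.32 ± 0.18 (SE, adjusted p = 0.149), and Zfp644, a partner of the methyltransferases G9a and GLP, at -0.21 ± 0.16 (SE, adjusted p = 0.336), by the authors' deposited table. These last are the most abundant of the 155, with mean counts of 2501 and 3043 by the authors' deposited table. Zfp706, linked to the exit of mouse stem cells from self-renewal, stood at 0.37 ± 0.20 (SE, adjusted p = 0.121), and Zfp746 (PARIS), a repressor of Ppargc1a, at 0.04 ± 0.18 (SE, adjusted p = 0.908), by the authors' deposited table.

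Genes of the pathway that KRAB proteins act through were read from a list of 29, of which 28 were measured. In dual-targeted lines 4 passed the test by the authors' deposited table, all of them higher, which is 14.3% of the list against 20.9% of all genes tested. The list had a median of 0.25 by the authors' deposited table, against 0.01 over all genes. The 4 were Cbx5, which encodes the H3K9me3 reader HP1-alpha (0.78 ± 0.16 SE, adjusted p = 1.61e-05), Chd4, the NuRD remodeller (0.67 ± 0.16, adjusted p = 0.000213), Zfp57, the KRAB protein of imprinted loci (0.66 ± 0.20, adjusted p = 0.00228), and Resf1, a SETDB1 partner (0.57 ± 0.19, adjusted p = 0.00861), by the authors' deposited table. Trim28 itself stood at 0.23 ± 0.18 (SE, adjusted p = 0.318) and Setdb1 at 0.04 ± 0.15 (adjusted p = 0.869) by the authors' deposited table. In single-targeted lines 0 of the 28 passed the DESeq2 test by the authors' deposited table, with 4 at an unadjusted p under 0.05. In the clones over wildtype cells 4 were higher and 1 lower by the authors' deposited table (17.9%, against 19.3% of all genes tested). The higher ones were Cbx5, Chd4, Zfp57 and Resf1 again, and the lower one was Mphosph8, a HUSH complex subunit that reads H3K9me3, at -0.92 ± 0.23 (SE, adjusted p = 0.000182) by the authors' deposited table. With all dual-targeted lines Mphosph8 stood at -0.36 ± 0.26 (SE, adjusted p = 0.214) by the authors' deposited table. Whether genes around Mphosph8 on its chromosome were also lower in the clones was not tested. In dual-targeted over single-targeted lines 2 were higher by the authors' deposited table (7.14%, against 7.06% of all genes tested): Cbx3, which encodes HP1-gamma, at 0.51 ± 0.21 (SE, adjusted p = 0.0359), and Chd4 at 0.46 ± 0.18 (SE, adjusted p = 0.0347).

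Single-targeted lines, with 2 mutant alleles, were set against the same 3 wildtype libraries. Few of the zinc finger genes passed the test: 1 was higher and 4 were lower by the authors' deposited table, out of 149 tested. That is 3.36%, against 2.96% of all genes tested (1.49% higher, 1.47% lower), and the median was 0.02. Zfp827 was lower at -0.93 ± 0.19 (SE, adjusted p = 3.03e-05) and Zfp866 at -0.61 ± 0.19 (SE, adjusted p = 0.00756) by the authors' deposited table. Zfp821 was lower at -0.72 ± 0.25 (SE, adjusted p = 0.0137) by the authors' deposited table. These 3 lie on chromosome 8, where 83 of 774 other tested genes were lower and 3 higher by the authors' deposited table, with a median of -0.13. Zfp839, on chromosome 12, was lower at -0.60 ± 0.26 (SE, adjusted p = 0.0441) by the authors' deposited table. The one gene that was higher was Zfp750, with rebuilt means of 58.0 normalized counts in single-targeted lines and 15.7 in wildtype cells. Its fold change by the authors' deposited table was 1.60 ± 0.56 (SE, adjusted p = 0.0118), on a mean count of 33.2. All 5 were also called in dual-targeted lines in the same direction, in a comparison that shares the wildtype libraries.

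By group, 1 of 103 tested KRAB genes and 4 of 41 without KRAB passed the test in single-targeted lines by the authors' deposited table. Over all genes tested the share was 2.96%. Of the 4 without KRAB, Zfp827 and Zfp821 lie on chromosome 8 and Zfp750 has a low mean count. Medians were 0.05 with KRAB and -0.05 without. In the chromosome 4 cluster 15 of 16 genes were above 0 in single-targeted lines too, at -0.04 to 0.66 by the authors' deposited table (median 0.13). In the authors' DESeq2 test 0 of the 16 passed, with 7 at an unadjusted p under 0.05. Zfp600 came nearest, at 0.66 ± 0.41 (SE, adjusted p = 0.0993) by the authors' deposited table, and Zfp979 stood at 0.52 ± 0.28 (SE, adjusted p = 0.0999). In the chromosome 17 clusters the medians by the authors' deposited table were 0.03 and 0.10, and 0 genes passed the authors' DESeq2 test, with 1 of the 13 tested in the first and 0 of 6 in the second at an unadjusted p under 0.05. Just outside the threshold, Zfp819 stood at -0.64 ± 0.34 (SE, adjusted p = 0.0713) by the authors' deposited table.

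Dual-targeted and single-targeted lines were then compared directly, which is the test of whether the sets of lines differ. Only 4 of 144 tested zinc finger genes passed it by the authors' deposited table, 1 higher and 3 lower (2.78%), against 7.06% of all genes tested (4.37% higher, 2.69% lower). The median over the zinc finger genes was -0.04. The 3 that were lower are KRAB genes, and in each the single-targeted mean was above that of wildtype cells. Zfp811 had rebuilt means of 66.2 normalized counts in dual-targeted lines, 173 in single-targeted lines and 142 in wildtype cells, and a fold change over single-targeted lines of -1.18 ± 0.37 (SE, adjusted p = 0.00608) by the authors' deposited table. Zfp655 (chromosome 5, 145231715 to 145247302) had rebuilt means of 1116 in dual-targeted lines, 1865 in single-targeted lines and 1646 in wildtype cells. Its protein is known in human for binding VAV1. Its fold change over single-targeted lines was -0.61 ± 0.22 (SE, adjusted p = 0.0208) by the authors' deposited table. Zfp944 (chromosome 17, 22337989 to 22361400), in the first chromosome 17 cluster, had rebuilt means of 115 in dual-targeted lines, 241 in single-targeted lines and 154 in wildtype cells. It stood at -0.84 ± 0.37 (SE, adjusted p = 0.0302) by the authors' deposited table.

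Zfp646 (chromosome 7, 127876221 to 127885996), a gene without KRAB, was the one that was higher, with rebuilt means of 1868 normalized counts in dual-targeted lines, 1239.6 in single-targeted lines and 1439 in wildtype cells. Its fold change over single-targeted lines was 0.50 ± 0.21 (SE, adjusted p = 0.0404) by the authors' deposited table. With the trend on gene length taken out the adjusted p was 0.085, and it overlaps Zfp668, which stood at 0.35 ± 0.21 (SE, adjusted p = 0.148) by the authors' deposited table, on the opposite strand. Of 105 KRAB genes in this comparison 73 were below 0 and 32 above by the authors' deposited table (median -0.09), while of 44 without KRAB 15 were below 0 and 29 above (median 0.05). The chromosome 4 cluster had a median of -0.02 by the authors' deposited table, and the chromosome 17 clusters stood at -0.23 and -0.37. Nearest the threshold outside it by the authors' deposited table were Zfp934 (-0.63 ± 0.32 SE, adjusted p = 0.0564) and Zfp952 (-0.60 ± 0.31 SE, adjusted p = 0.0632).

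The 2 clones were also compared alone with the wildtype libraries. Of 151 zinc finger genes tested, 10 were higher and 17 lower by the authors' deposited table (17.9%), against 19.3% of all genes tested (9.05% higher, 10.3% lower). Calls made here and in the comparison of all dual-targeted lines numbered 21, all in the same direction: 77.8% of the calls here and 84.0% there. Both comparisons hold the 2 clones and the same wildtype libraries, so much of this overlap is built in for any gene. The overlap over all genes was not counted. Zfp608 (chromosome 18, 54888048 to 54992555), a gene without KRAB that is known to repress the Rag genes in mouse thymocytes, was lower in the clones by the authors' deposited table, at -0.94 ± 0.39 (SE, adjusted p = 0.015). Rebuilt means put it at 34.3 normalized counts in the clones, 151 in the H3f3b A/A dual-targeted line and 77.7 in wildtype cells. The clones were thus low and the other line high, and with all 3 dual-targeted lines together Zfp608 stood at -0.04 ± 0.29 (SE, adjusted p = 0.921) by the authors' deposited table.

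Zfp961, on chromosome 8, was higher in the clones at 0.55 ± 0.21 (SE, adjusted p = 0.0212) by the authors' deposited table, with rebuilt means of 1431 normalized counts in the clones, 813 in the H3f3b A/A dual-targeted line and 932 in wildtype cells. The others called in the clones alone by the authors' deposited table were Zfp740 (0.49 ± 0.21 SE, adjusted p = 0.0469), Zfp938 (-0.77 ± 0.35 SE, adjusted p = 0.0271), Zfp947 (-1.01 ± 0.60 SE, adjusted p = 0.0372) and Zfp972 (-1.21 ± 0.61 SE, adjusted p = 0.0222). Zfp740 overlaps Csad and Zfp972 overlaps Gm14327 on the opposite strand, and Zfp961 overlaps Gm45694 on the same strand. Zfp947 and Zfp972 are low, with mean counts of 34.7 and 27.3 by the authors' deposited table. Of their 50-base transcript words, 20.05% and 55.7% occur in some other gene. In the chromosome 4 cluster all 16 genes were above 0 in the clones (median 0.31 by the authors' deposited table), and Zfp600 (1.16 ± 0.34 SE, adjusted p = 0.00121) and Zfp980 (0.92 ± 0.29 SE, adjusted p = 0.00271) were higher. Rebuilt means of Zfp600 were 319 in the clones, 256 in the H3f3b A/A dual-targeted line and 131 in wildtype cells. Zfp946 had 135 in the clones, 194 in the H3f3b A/A dual-targeted line and 387 in wildtype cells, and Zfp811 had 71.0 in the clones, 56.7 in the H3f3b A/A dual-targeted line and 142 in wildtype cells. For these 3 genes both genotypes lay on the same side of wildtype.

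**Figure D4:**
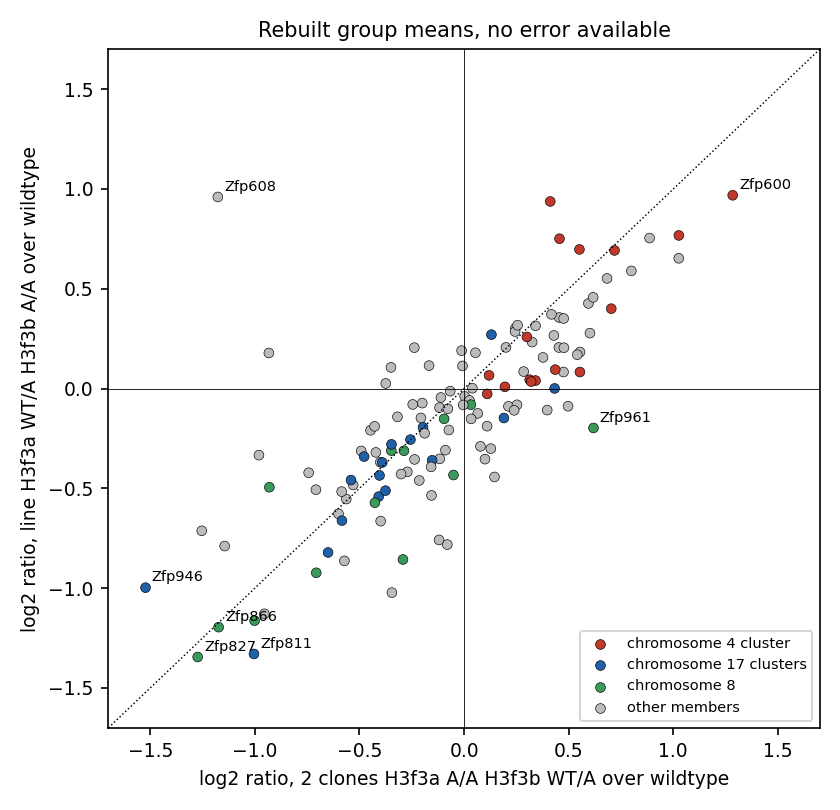
Log2 ratios of rebuilt group means over wildtype, for the clones (x axis) and the line H3f3a WT/A with H3f3b A/A (y axis), 1 point for each of the 133 genes whose mean count reached 50 in every table, coloured by place in the genome. The ratios carry no error and share the wildtype mean. Of the points, 43 lie above 0 on both axes and 64 below 0 on both, and Zfp608 lies farthest from the dotted line of equal ratios.

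Across those 133 genes, the rebuilt ratio differed between the clones and the H3f3b A/A dual-targeted line by over 0.5 on the log2 scale in 14 cases. Of the 155 genes, 121 were called in no comparison. The share of all genes called in at least 1 comparison was not counted. Of the 34 called in at least 1, 12 overlap another measured gene and 6 have over 20% of their 50-base transcript words in some other gene. Over all 155, these numbers are 37 and 32. The 12 called genes that overlap another are Zfp600, Zfp646, Zfp652, Zfp710, Zfp740, Zfp750, Zfp811, Zfp866, Zfp941, Zfp961, Zfp972 and Zfp980.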

How the data were processed

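TT-seq libraries of E14 mouse embryonic stem cells came from 3 dual-targeted H3.3 K122A lines, 2 single-targeted lines and wildtype cells (3). The submitters' processing notes name STAR, SAMtools, featureCounts, DESeq2 and deepTools, with the builds mm10 and GRCm38.p6 and no versions. The authors' comparisons came as 4 tables, each of a separate fit. Per the file headers, the authors gave for each gene the mean of DESeq2-normalized counts (a signal without depth per library), the log2 fold change with its SE, the p-value and the adjusted p-value. The deposited log2 fold changes are read as shrunken, since for 100% of called genes they were smaller than their p and SE imply, and sizes from different tables are not strictly comparable. Positive values mean higher in mutants than in wildtype cells, or in dual-targeted than in single-targeted lines.

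Calls rest on the deposited adjusted p, under 0.05, and an empty adjusted p stayed empty. Fold change, SE and p are the authors', so the test was not refitted. Group means were rebuilt by subtraction from the 4 means and the numbers of libraries, on scales that set the median gene equal to wildtype. They carry no error. The sign of the rebuilt ratio matched the deposited fold change for 100% of the called genes compared.

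Genes were matched to GENCODE M21 (GRCm38), which held 155 of the 155. KRAB was called from the translated coding sequence by 7 or more of 9 A-box positions, a cluster by starts within 1 Mb, and near copies by shared 50-base words of transcripts. Sequences are from the GRCm38 genome and RefSeq promoters (GRCm38.p6). Named genes were the called ones, the 2 nearest the threshold outside it, the most abundant, and those with a role known well enough to state; Zfp677, Zfp978, Zfp979, Zfp981, Zfp987 and the genes named that are no members of the group (markers and listed co-repressors aside) were chosen after their values were seen. The members, lists and alternatives were chosen with earlier results of these data known. Scripts used Python 3.11.15, numpy 2.4.6, pandas 2.3.3, Biopython 1.88 and matplotlib 3.10.9, and the adjustment, length trend and rebuilding were tested on simulated data.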

Additional observations from a re-analysis of the deposited data

Results flagged for a closer look

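Dual-targeted and single-targeted lines differed in 4 zinc finger genes by the authors' own test of the difference, in a comparison of 3 lines with 2. The log2 fold change of dual-targeted over single-targeted lines was -1.18 for Zfp811, -0.61 for Zfp655, -0.84 for Zfp944 and 0.50 for Zfp646 in the authors' deposited table. Against wildtype cells, dual-targeted lines stood at -0.97 for Zfp811, -0.46 for Zfp655, -0.29 for Zfp944 and 0.33 for Zfp646, and single-targeted lines at 0.09 for Zfp811, 0.08 for Zfp655, 0.39 for Zfp944 and -0.11 for Zfp646, in the authors' deposited tables. With the trend on gene length taken out, Zfp646 had an adjusted p of 0.085.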

How the results depend on the processing

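No paired analysis was possible because the tables hold no values per library. For the same reason the fits without each wildtype or single-targeted library were not run. Leaving out dual-targeted replicate 3, as the authors' comparison of the clones does, 10 zinc finger genes were higher and 17 lower, with a median of -0.04. At an adjusted p under 0.01, 4 were higher in dual-targeted lines over wildtype, 0 were higher and 2 lower in single-targeted lines, 0 were higher and 1 lower in dual-targeted over single-targeted lines, and 3 were higher and 7 lower in the clones. Without chromosomes 8 and 14, 10 were lower in dual-targeted lines and 1 in single-targeted lines. With a mean count of 50 or more, 0 were higher in single-targeted lines, since Zfp750 falls under it. With the trend on gene length taken out, 0 were higher in dual-targeted over single-targeted lines, as Zfp646 had an adjusted p of 0.085. The same setting ended the calls on Zfp710 and Zfp652 in dual-targeted lines (adjusted p of 0.0752 and 0.0697). In the clones it ended those on Zfp770, Zfp626, Zfp710, Zfp652 and Zfp740 (adjusted p of 0.059 to 0.186). It brought in other calls as well. For dual-targeted lines over wildtype, called rises went from 9 to 10 and called falls from 16 to 17. For the clones, called rises went from 10 to 8 and called falls from 17 to 18. Called falls in dual-targeted over single-targeted lines went from 3 to 4. The median in the clones was 0.0044 without chromosomes 8 and 14, against -0.04 as deposited, and so changed sign. No other median over all the zinc finger genes and no called fold change changed sign, and each such median moved by less than the median SE of a single gene in its table. Some cluster medians near 0 changed sign with the length trend taken out. At chromosome 7, 127244274 to 127885996, the median went from 0.009 to -0.05 in dual-targeted lines and from 0.03 to -0.03 in the clones. At chromosome 7, 41633203 to 43618285, it went from 0.04 to -0.0076 in dual-targeted over single-targeted lines. Keeping genes with at most 20% of their 50-base words in another gene, an alternative chosen after seeing the data, left 6 higher and 15 lower in dual-targeted lines. Depth per library is unknown, and 17 genes with a mean count under 50 in the dual-targeted table are the least precise.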
